A study of Mus musculus with 10 samples.

Results

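Immunoglobulin genes are the rows of the deposited table whose gene type is a constant (C), variable (V), diversity (D) or joining (J) segment of the heavy chain, kappa or lambda locus. Of 264 such rows among the 54532 genes of the table, 166 had an FPKM (fragment counts divided by gene length and library total) above 0 in at least 3 of the 10 samples, and these 166 were selected: 11 of 13 C genes, 143 of 218 V segments, 12 of 14 J segments and 0 of 19 D segments. The samples were whole lungs of wild-type C57BL/6J mice collected at postnatal day 30 (P30). In the increased pulmonary flow (IPF) group (n = 5), an aortocaval fistula, a connection between abdominal aorta and inferior vena cava that sends more blood through the lungs, was made at postnatal day 7. In the sham group (n = 5), the vessels were exposed at the same age and not punctured. The RNA was that of unsorted, snap-frozen tissue, so fewer cells of a type and less RNA per cell cannot be told apart.

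An antibody gene is assembled in each developing B cell by joining a V, a D and a J segment of the heavy chain locus, and a V and a J segment of the kappa or the lambda locus. The assembled V region is read together with a constant gene, which sets the isotype. Resting B cells carry IgM and IgD (constant genes Ighm and Ighd), and after class switching they use an IgG, IgA or IgE constant gene. Plasma cells secrete antibody, and in airways IgA is joined through the J chain (Jchain) and carried across the epithelium by the polymeric immunoglobulin receptor (Pigr). In mice most light chains are kappa chains.

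The recovered depth was 16250190 to 19026843 reads on genes in the IPF group and 15483046 to 17818542 in the sham group. The C genes held 1603 to 3426 reads per lung, the V segments 234 to 470 and the J segments 12 to 46, so that single V segments rested on few reads. The IgG genes together had 7 to 37 reads per lung, and Igha had 6 to 47 in the IPF lungs. The lung was recognised by its markers, since Sftpc, the surfactant protein C gene of alveolar type 2 cells, stood at 14400 ± 2850 FPKM in sham (SD, n = 5) and 14900 ± 771 in IPF (n = 5). By limma 0 of the 10 lung markers passed an adjusted p under 0.05 (1 at an unadjusted p under 0.05), and by limma voom 1 passed an adjusted p under 0.05. Every IPF lung expressed Xist, from 26.8 to 43.2 FPKM, and listed the Y-linked Ddx3y at 0, whereas every sham lung held Ddx3y at 14.3 to 21.4 FPKM and Xist at 0.0767 or less, so that the operation and sex cannot be told apart in any comparison here. Glycam1, a gene of lymph node venules, was found only in IPF replicate 3, at 5.6 FPKM.

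Of the 166 members, 122 had a mean FPKM of at least 0.1 and were tested with limma on log2(FPKM + 0.1), and p-values were adjusted by Benjamini-Hochberg across the 20448 genes tested. At an adjusted p under 0.05, 7 members were higher and 1 was lower in IPF, together 6.56% of the members, while 5.85% of all genes passed, 3.71% in the higher and 2.14% in the lower direction. With the limit of an absolute log2 fold change above 1 added, 5 members (4.1%) were called (Igha, Iglc1, Iglc2, Ighv1-52 and Igkv3-2), against 1.14% of all genes, while Ighm, Igkc and Iglv1 stayed under that limit. In 7 of the 122 members tested the groups did not overlap (6 with IPF above, 1 with IPF below), a smaller share than the 7.29% of all genes. Of the 122, 13 reached the FPKM filter only through the IPF lungs and 5 only through the sham lungs, and such a gene had to differ to be tested. Ighv1-52 is one of the 13, so its call is no support. Among the 104 members that reached the filter in both groups, 7 passed the adjusted p (6.73%, against 6.01% of all genes so limited) and 4 were called with the fold limit (3.85%, against 1.03%). The median log2 fold change of the 122 was 0.46 (84 higher, 38 lower), and that of all genes was 0.00. By class, 5 of 9 C genes passed, but 3 of 101 V segments and 0 of 12 J segments did (J: 5 at an unadjusted p under 0.05 by limma, 0 by limma voom with adjustment).

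**Figure D1:**
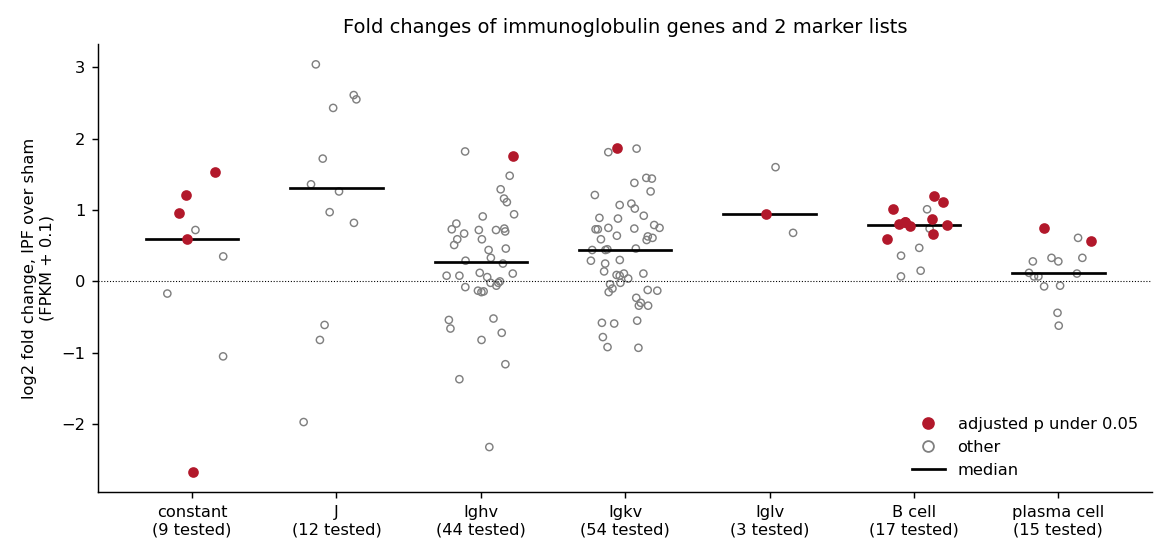
Log2 fold changes (vertical axis, IPF over sham on FPKM + 0.1) of each gene tested, by class of immunoglobulin gene and for the B cell and plasma cell marker lists. Filled points passed an adjusted p under 0.05 (limma), lines mark medians. The C genes spread from -2.67 (Igha) to 1.53 (Iglc1), and 11 of 17 B cell genes are filled against 2 of 15 plasma cell genes.

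The heavy chain constant genes lie side by side on the minus strand of chromosome 12 (GRCm38 positions), Ighm at 113418558 to 113422730 and Igha, farthest downstream, at 113254830 to 113260236. Ighm stood at 63.7, 52.9, 56.0, 54.1 and 45.4 FPKM in the 5 IPF lungs and at 25.4, 28.6, 32.7, 26.1 and 26.4 in the sham lungs. Every IPF lung was above every sham lung, and the group means of 54.4 ± 6.57 and 27.8 ± 2.98 (SD, n = 5 each) differed 1.95-fold (log2 fold change 0.96, SE 0.09, limma adjusted p = 0.000338). Ighd, the IgD gene that B cells transcribe together with Ighm, ranged from 9.07 to 12.3 FPKM in IPF and from 5.31 to 10.9 in sham. These ranges overlapped, and the difference did not pass (log2 fold change 0.35, SE 0.17, limma adjusted p = 0.274).

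Igha, the IgA gene, went the other way. It stood at 1.01, 0.135, 0.733, 0.967 and 0.699 FPKM in IPF, from 46, 6, 37, 47 and 33 reads, and at 4.55, 2.93, 8.24, 2.90 and 5.33 FPKM in sham, from 200, 140, 353, 129 and 217 reads. No IPF lung reached the lowest sham lung, and the mean was 6.75-fold higher in sham than in IPF (log2 fold change -2.67, SE 0.43, limma adjusted p = 0.00513). IPF replicate 2, with 6 reads, was far below the other IPF lungs, and without any single lung the log2 fold change stayed between -2.83 and -2.27, while over all alternatives it went from -2.89 to -1.71, the last with a pseudocount of 1. Igha was the only member that passed in the lower direction.

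The IgG genes were near the limit of detection. Over all 10 lungs Ighg1 had 79 reads, Ighg2b 48, Ighg3 36 and Ighg2c 21. Ighg1 was carried by single lungs of both groups, with 22 reads in IPF replicate 4 and 19 and 14 in sham replicates 2 and 1, while the other lungs held 0 to 7. Ighg2b had 1, 0, 2, 0 and 6 reads in IPF and 13, 7, 8, 5 and 6 in sham. It reached the FPKM filter only through the sham lungs, with a mean of 0.177 FPKM there and 0.0376 in IPF, so its p is not given. The difference did not pass in the main fit but did in 4 of 17 alternatives, which is no support. Its fitted log2 fold change was -2.6 with a pseudocount of 0.01 and -0.18 with 1, and no fold is given. Ighg3 and Ighg2c were below the filter and were not tested. Ighe, the IgE gene, had no read in any lung.

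**Figure D2:**
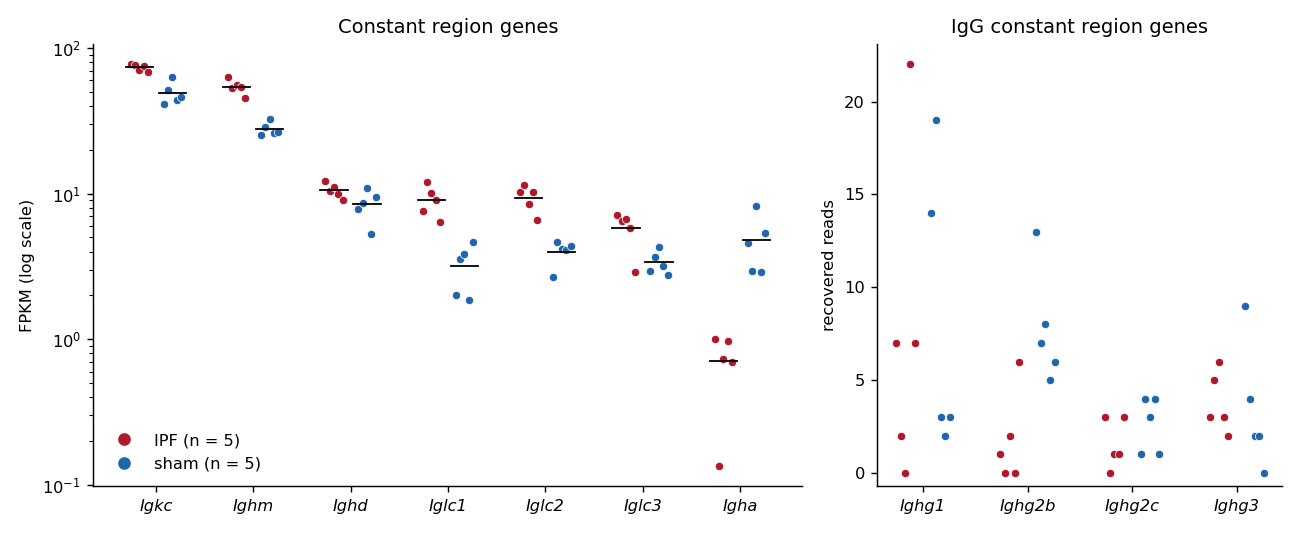
Left, FPKM (log scale) of the constant genes of IgM, IgD, IgA, kappa and lambda in each lung, with lines at group means; right, recovered reads of the 4 IgG genes. Ighm, Igkc, Iglc1 and Iglc2 of all 5 IPF lungs lie above all sham lungs, Igha lies below, and Ighd and Iglc3 overlap.

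As a share of the heavy chain constant FPKM of a lung, IgM made up 82.4% ± 0.526 in IPF and 67.3% ± 5.22 in sham (SD, n = 5 each). IgA made up 1.31, 0.212, 1.08, 1.48 and 1.26% in the IPF lungs and 11.7, 7.14, 15.7, 8.36 and 12.9% in the sham lungs. IgD took 16% ± 0.563 in IPF and 20.1% ± 2.86 in sham, and IgG 0.549% ± 0.284 and 1.38% ± 0.716. The shares of IgM and IgA did not overlap between groups, those of IgD and IgG did. These sums and shares are descriptions with no test.

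Of the light chain constant genes, Igkc, Iglc1 and Iglc2 rose. Igkc, the kappa gene on the plus strand of chromosome 6 (70726435 to 70726966), was the most abundant C gene, at 77.7, 76.0, 70.8, 75.2 and 69.0 FPKM in IPF and 41.5, 51.2, 62.9, 44.2 and 46.5 in sham. The groups did not overlap (log2 fold change 0.60, SE 0.10, limma adjusted p = 0.00636). The lambda genes lie on the minus strand of chromosome 16, Iglc2 at 19198396 to 19200351, Iglc3 at 19065230 to 19065681 and Iglc1 at 19061618 to 19062071. Iglc2 and Iglc3 are close copies with 96.5% identical coding bases, whereas Iglc1 shares 74.3% with Iglc2 and 75.5% with Iglc3. How reads were divided among the 3 genes was not tested, and it also depends on bases not shown. The first 180 coding bases that could be aligned are given to show where the 3 differ (GENCODE vM39 transcripts matched by gene ID, capitals marking the 46 positions at which the 3 are not all the same, 5′ to 3′).
Iglc1: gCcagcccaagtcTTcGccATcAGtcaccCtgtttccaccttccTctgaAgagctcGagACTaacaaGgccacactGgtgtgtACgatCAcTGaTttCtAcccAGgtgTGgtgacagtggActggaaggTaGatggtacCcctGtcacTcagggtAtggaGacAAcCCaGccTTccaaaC
Iglc2: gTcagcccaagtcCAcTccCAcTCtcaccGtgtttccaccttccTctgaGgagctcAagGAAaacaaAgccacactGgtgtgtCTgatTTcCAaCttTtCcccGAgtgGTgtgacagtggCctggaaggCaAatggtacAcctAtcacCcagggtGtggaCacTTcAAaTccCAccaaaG
Iglc3: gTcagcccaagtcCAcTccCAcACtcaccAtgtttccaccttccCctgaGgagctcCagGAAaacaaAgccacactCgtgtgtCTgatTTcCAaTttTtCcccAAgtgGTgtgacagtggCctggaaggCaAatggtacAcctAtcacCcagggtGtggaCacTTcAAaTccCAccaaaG

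Iglc1 stood at 7.63, 12.0, 10.1, 9.06 and 6.35 FPKM in IPF and 2.00, 3.56, 3.84, 1.85 and 4.62 in sham (log2 fold change 1.53, SE 0.26, limma adjusted p = 0.00636). Iglc2 stood at 10.3, 11.4, 8.47, 10.3 and 6.56 FPKM in IPF and 2.68, 4.65, 4.17, 4.12 and 4.39 in sham (log2 fold change 1.21, SE 0.17, limma adjusted p = 0.00291). In both genes the lowest IPF lung, replicate 5, was above the highest sham lung. Iglc3 stood at 7.15, 6.50, 6.67, 5.83 and 2.88 FPKM in IPF and at 2.76 to 4.27 in sham. Its IPF replicate 5 fell among the sham lungs, and the difference did not pass (log2 fold change 0.72, SE 0.23, limma adjusted p = 0.0977). Without that lung it did (log2 fold change 0.95, limma adjusted p = 0.00151, range over all alternatives 0.00151 to 0.258). Reads that match both Iglc2 and Iglc3 make the division between these 2 genes uncertain, and Iglc4, with 1 read in all, was no member. Lambda took 24.4, 28.2, 26.3, 25.1 and 18.6% of the light chain constant FPKM in IPF and 15.5, 18.9, 16.3, 17.2 and 20.2% in sham, so that 4 of 5 IPF lungs were above all sham lungs and IPF replicate 5 was within their range.

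Ratios within a lung compare genes without reference to the total of the library. They were chosen after the values of the genes were seen, so their p-values are not independent of that choice, and 7 were tested by exact permutation of the 10 lungs (two-sided, smallest possible p 0.00794), with Benjamini-Hochberg adjustment over the 7. For Ighm over Cd79a, the gene of a signalling chain of the B cell receptor, the ratio was 3.56, 3.59, 3.77, 3.70 and 3.91 in IPF and 3.43, 3.41, 3.63, 5.66 and 3.66 in sham (difference on the log2 scale -0.07, exact permutation p = 0.944, adjusted 0.944). Only sham replicate 4 stood apart, with the lowest Cd79a of all lungs at 4.62 FPKM. Igkc over Cd79a was lower in IPF (log2 difference -0.43, exact permutation p = 0.0159, adjusted 0.0278).

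Relative to Ighm, Ighd, Igkc and Igha were lower in every IPF lung than in every sham lung. Ighd over Ighm was 0.183 to 0.200 in IPF and 0.203 to 0.360 in sham (log2 difference -0.61), with the lowest sham value again in replicate 4. Igkc over Ighm was 1.22 to 1.52 in IPF and 1.63 to 1.92 in sham (log2 difference -0.37), and Igha over Ighm was 0.00255 to 0.0179 against 0.102 to 0.252 (log2 difference -3.89). For Ighd and Igkc the exact permutation p = 0.00794 (adjusted 0.0185) was the smallest the design allows. Igha over Ighm is given with no test, since Ighm above and Igha below in every IPF lung fix its order.

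Relative to Igkc, Iglc2 was higher in every IPF lung (log2 difference 0.63, exact permutation p = 0.00794, adjusted 0.0185), although IPF replicate 5 at 0.0951 and sham replicate 5 at 0.0945 nearly met. Iglc1 over Igkc was higher in IPF with overlapping lungs (log2 difference 0.97, exact permutation p = 0.0238, adjusted 0.0333). For Iglc3 over Igkc the log2 difference was 0.14 (exact permutation p = 0.619, adjusted 0.722).

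**Figure D3:**
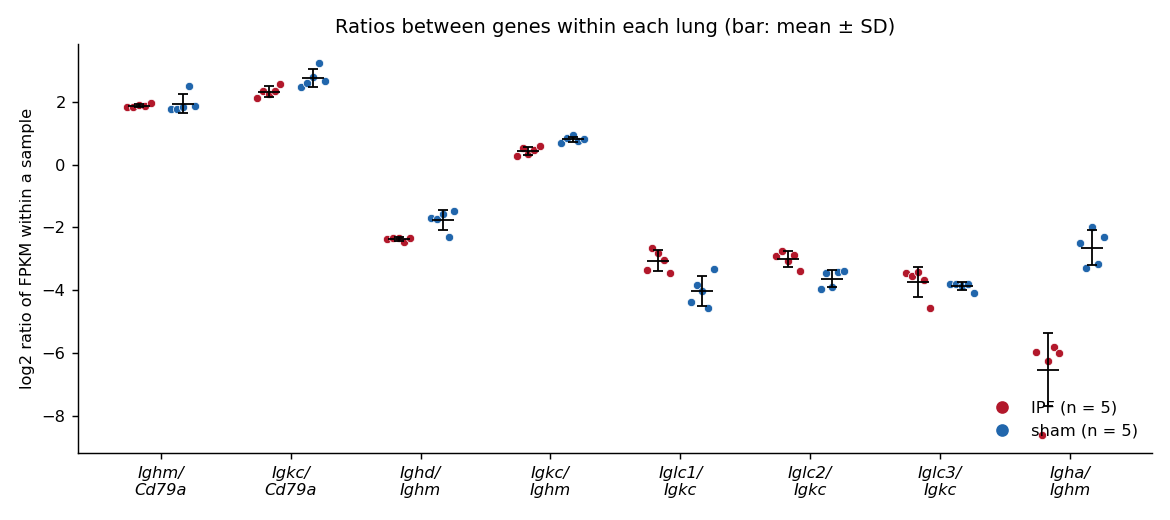
Log2 of the ratio of the FPKM of a pair of genes within each lung (points), with mean ± SD for IPF and sham (n = 5 each). Ighm over Cd79a overlaps between the groups, with 1 sham lung above the rest, and Igha over Ighm has group means 3.89 log2 units apart.

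V segments are the part of the gene that shapes the antigen binding site. Of the 143 that were members (71 of 113 Ighv, 69 of 102 Igkv and 3 of 3 Iglv), 21 had a read in all 10 lungs, and the median member had 14 reads over all lungs (3 to 292). At the limit of the rule, 15 immunoglobulin rows had reads in 2 lungs only (2 to 4 reads in total, among them Ighv2-3 and Igkv4-69) and were left out, and 24 rows had reads in exactly 3 lungs (3 to 6 reads, among them Ighv14-4 and Igkv4-59) and were kept. Reads in 1 group only were found for 6 V members, 4 with reads in IPF alone and 2 in sham alone, each with 3 to 6 reads, and none of these was tested.

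By locus, the summed Igkv members stood at 36.4, 31.7, 30.7, 32.3 and 28.3 FPKM in IPF and at 23.7, 20.0, 28.1, 18.5 and 25.0 in sham, and did not overlap, although IPF replicate 5 and sham replicate 3 were nearly equal and overlapped as reads scaled to library size (RPM, 10.1 and 10.4). Iglv stood at 13.6, 10.6, 6.74, 11.9 and 6.96 FPKM in IPF and 4.41, 3.63, 5.25, 5.10 and 6.30 in sham, a ratio of means of 2.02. Ighv stood at 23.7, 13.8, 15.4, 20.7 and 15.2 FPKM in IPF and 15.8, 12.5, 19.1, 13.5 and 17.6 in sham, with overlapping groups and a ratio of means of 1.13, beside 1.38 for Igkv and 1.95 for Ighm. Sums over members are given without a test. Over the members tested, the median log2 fold change was 0.27 for Ighv (28 of 44 higher) and 0.45 for Igkv (38 of 54 higher). For Iglv it was 0.94 (3 of 3 higher). In each locus 1 member passed an adjusted p under 0.05 (limma). This was 2.27% of Ighv and 1.85% of Igkv, both below the 5.85% of all genes, and 1 of 3 Iglv. The Ighv member reached the filter only through its IPF lungs, so its call is no support.

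The number of V segments with a read was higher in IPF before, and less so after, the number of V reads was made equal. The IPF lungs held 51, 35, 44, 49 and 33 Ighv members and 56, 57, 46, 54 and 51 Igkv members with a read, and the sham lungs 44, 33, 39, 30 and 38 Ighv and 43, 44, 46, 38 and 46 Igkv. The Ighv counts overlapped, and the Igkv counts met at 46. All 3 Iglv segments were found in every lung. The mean number of Igkv segments was 52.8 ± 4.44 in IPF and 43.4 ± 3.29 in sham as deposited, 50.7 ± 4.97 and 42.4 ± 3.78 as the expected number at the lowest depth of 15483046 reads, and 42.6 ± 2.58 and 40.4 ± 1.83 at an equal number of 116 Igkv reads per lung (SD, n = 5 each). For Ighv the same 3 pairs were 42.4 ± 8.11 and 36.8 ± 5.45, 40.1 ± 7.76 and 35.8 ± 5.78, and 36.8 ± 3.94 and 34.7 ± 4.20, the last at 83 Ighv reads. At equal V reads the groups thus differed by 2.16 Igkv and 2.11 Ighv segments, where 9.4 and 5.6 had been counted. For Ighv this was less than the SD within either group, and for Igkv it lay between the SD of sham and that of IPF.

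**Figure D4:**
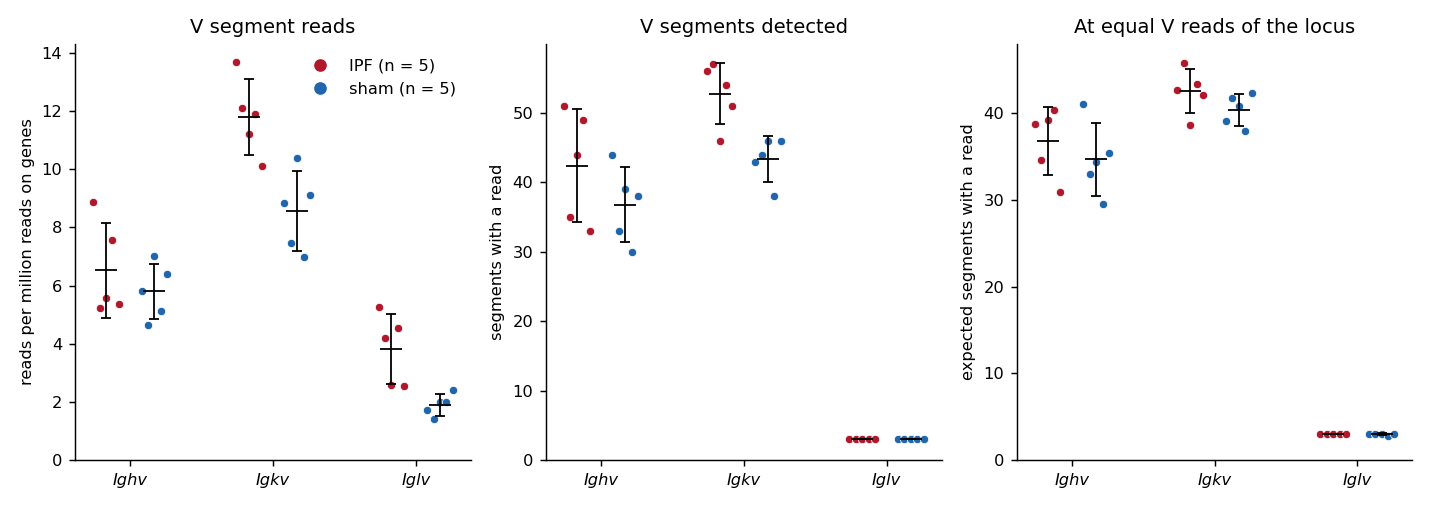
RPM (reads scaled to library size) on V segments (left), number of V members with a read (middle) and expected number at an equal number of V reads of the locus (right), by locus, for each lung with mean ± SD (n = 5 each). The gap between groups in Igkv segments, 52.8 against 43.4 in the middle, is 42.6 against 40.4 on the right.

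All 3 lambda V segments had positive log2 fold changes, and Iglv1 passed. Iglv1, which lies on chromosome 16 at 19085017 to 19085500, upstream of Iglc3 and Iglc1, had the most reads of any V segment, with 52, 42, 31, 50 and 24 in IPF and 17, 16, 14, 26 and 20 in sham. IPF replicate 5 was below sham replicate 4, and the difference passed (log2 fold change 0.94, SE 0.24, limma adjusted p = 0.0398) but was lost in 12 of 21 alternatives (adjusted p 0.0106 to 0.101). Iglv2, upstream of Iglc2 at 19260401 to 19260859, had 13, 17, 8, 17 and 13 reads in IPF and 3, 5, 11, 1 and 3 in sham, and did not pass (log2 fold change 1.60, SE 0.44, limma adjusted p = 0.0605), although it did in 4 of 21 alternatives (adjusted p 0.0143 to 0.137, log2 fold change 0.86 with a pseudocount of 1 and up to 1.98 elsewhere), with the lowest p without sham replicate 3. Iglv3 had 24, 9, 10, 16 and 10 reads in IPF and 8, 4, 7, 6 and 14 in sham (log2 fold change 0.68, SE 0.35, limma adjusted p = 0.317). Iglv1 and Iglv2 are 96.9% identical over their coding bases, which leaves reads from shared stretches open to either, while Iglv3 is 59.5% identical to its closest V segment. The first 240 coding bases of the pair show where they can be told apart (GENCODE vM39, capitals at the 7 positions that differ, 5′ to 3′).
Iglv1: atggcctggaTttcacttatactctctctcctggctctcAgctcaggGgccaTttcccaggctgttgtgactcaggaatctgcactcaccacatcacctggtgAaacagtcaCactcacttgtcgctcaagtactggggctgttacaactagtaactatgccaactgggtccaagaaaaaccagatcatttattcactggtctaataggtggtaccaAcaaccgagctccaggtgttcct
Iglv2: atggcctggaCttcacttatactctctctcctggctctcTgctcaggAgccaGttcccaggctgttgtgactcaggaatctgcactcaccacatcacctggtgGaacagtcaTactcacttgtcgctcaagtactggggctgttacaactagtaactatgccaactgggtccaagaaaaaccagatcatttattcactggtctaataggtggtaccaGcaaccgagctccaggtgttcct

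Past these, 2 V segments passed, each on few reads and with every sham lung at or under 3 reads. Igkv3-2 (chromosome 6, 70698449 to 70699067) had 10, 7, 3, 3 and 9 reads in IPF and 1, 2, 1, 0 and 2 in sham, without overlap, with a limma adjusted p = 0.038 that was lost in 12 of 20 alternatives (0.0198 to 0.105). Ighv1-52 (chromosome 12, 115145487 to 115145919) had 1, 4, 1, 2 and 3 reads in IPF and a single read in sham replicate 5. It was a member and was tested only through its IPF lungs, with a mean of 0.359 FPKM there and 0.0374 in sham, so its p is not given; it was lost in 10 of 20 alternatives. Its fitted log2 fold change went from 0.38 to 4.12 with the pseudocount, and no fold is given. Ighv1-52 and Ighv1-61 are alike at 97.9% of the first 240 coding bases, which are shown because a read of Ighv1-52 is set apart by only the 5 capitals (GENCODE vM39, 5′ to 3′).
Ighv1-52: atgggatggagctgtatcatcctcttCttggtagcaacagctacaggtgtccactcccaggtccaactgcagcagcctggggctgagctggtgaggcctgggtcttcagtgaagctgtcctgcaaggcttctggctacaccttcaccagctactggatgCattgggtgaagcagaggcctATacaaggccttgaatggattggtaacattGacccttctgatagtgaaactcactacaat
Ighv1-61: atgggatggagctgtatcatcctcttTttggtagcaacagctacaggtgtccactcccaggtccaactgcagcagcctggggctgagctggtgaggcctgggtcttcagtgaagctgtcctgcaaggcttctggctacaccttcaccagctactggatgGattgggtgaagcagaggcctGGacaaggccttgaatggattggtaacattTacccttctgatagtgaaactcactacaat
Of the 143 V members, 72 have another V segment at least 95% identical over the coding bases, and 115 one at least 90% identical, so the division of reads between single segments is uncertain.

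At the far ends of the V segments tested, by log2 fold change with the pseudocount of 0.1, stood Igkv3-2, Igkv9-124 and Ighv7-1 on the higher side, and Ighv1-59, Ighv5-12 and Ighv5-17 on the lower side. The order on the higher side depended on the pseudocount: Ighv1-52 was above all 3 with 0.01 and Igkv15-103, Iglv2 and Iglv1 were with 1. Of these 6, only Igkv3-2 passed. Ighv1-59 had 0, 0, 1, 2 and 0 reads in IPF and 7, 0, 7, 6 and 8 in sham, so that 4 of 5 sham lungs were above every IPF lung. It did not pass, except in 1 of 20 alternatives, without sham replicate 2. Ighv5-12 had 0 or 1 read in each IPF lung and 0 to 4 in the sham lungs. Both of these reached the filter only through the sham lungs, so their p-values are not given. Ighv5-17 had 0 to 4 and 1 to 10 (limma adjusted p = 0.324). Igkv9-124 rested on 17 of its 24 reads in IPF replicate 4, and Ighv7-1 on 25 of its 71 reads in IPF replicate 1. Igkv9-124 reached the filter only through the IPF lungs, with a mean of 0.72 FPKM there and 0.0353 in sham.

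Several V segments differed widely between lungs of 1 group. Igkv15-103, the kappa segment with most reads, had 41, 14, 2, 10 and 36 reads in IPF and 1, 2, 12, 15 and 3 in sham. It was the leading Igkv segment in 3 IPF lungs, with 17.7% of the Igkv reads in replicate 1 (41 of 231, 95% Wilson interval 13.4 to 23.2%), 7.14% in replicate 2 (14 of 196, 4.3 to 11.6%) and 19.4% in replicate 5 (36 of 186, 14.3 to 25.6%), but the lungs of both groups overlapped (log2 fold change 1.44, SE 0.83, limma adjusted p = 0.38). Its closest V segment shares only 76.4% of the coding bases. Intervals here cover counting error only, since reads of a library without molecular identifiers are not independent molecules.

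Sham replicate 4 used the fewest segments. Ighv3-8 held 23 of its 85 Ighv reads (27.1%, 95% Wilson interval 18.8 to 37.3%) and 0 to 4 reads in each other lung, and Igkv1-110 held 30 of its 116 Igkv reads (25.9%, 18.8 to 34.5%). The 5 leading Ighv segments took 61.2% of the reads there (50.5 to 70.8%), against 23.9 to 38.6% in the other 9 lungs. The effective number of segments (the inverse Simpson index, which counts segments by how evenly they share the reads) was 8.93 for Ighv and 9.95 for Igkv in this lung, while the other lungs ranged from 19.7 to 34.0 for Ighv and from 15.8 to 29.6 for Igkv. By group the index was 24.1 ± 6.03 in IPF and 20.6 ± 6.99 in sham for Ighv, and 23.3 ± 5.65 and 19.6 ± 6.53 for Igkv (SD, n = 5 each), with overlapping lungs. Without sham replicate 4 the sham means were 23.5 ± 2.92 for Ighv and 22.1 ± 4.22 for Igkv (n = 4). Over all V segments together the index was 34.0 ± 4.18 in IPF and 37.0 ± 10.8 in sham, where it was 41.5 ± 4.63 without replicate 4.

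Igkv12-89 in IPF replicate 3 (19 of its 24 reads) and Igkv16-104 in sham replicate 3 (18 of its 39 reads) were further segments that 1 lung dominated. The variance between lungs of a group divided by the mean reads, which is near 1 when lungs differ by counting alone, was 16.8 for Ighv3-8, 12.3 for Igkv12-89 and 12.0 for Igkv15-103, against a median of 1.40 over the 143 V members. It was 0.496 for Ighv1-26, which had 4 to 9 reads in every lung, and 1.10 for Igkv1-117, which had 6 to 17. These segments were named after their values were seen, except Igkv15-103, Igkv1-117 and Ighv1-26, which have the highest mean FPKM of their loci together with Igkv1-110, Igkv10-96, Igkv17-127, Ighv7-1, Ighv3-6, Ighv1-81 and Ighv1-55. None of these 10 abundant segments passed an adjusted p under 0.05 (limma), and in each the groups overlapped (1 of them, Ighv7-1, was under an unadjusted p of 0.05, and none passed under any alternative).

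**Figure D5:**
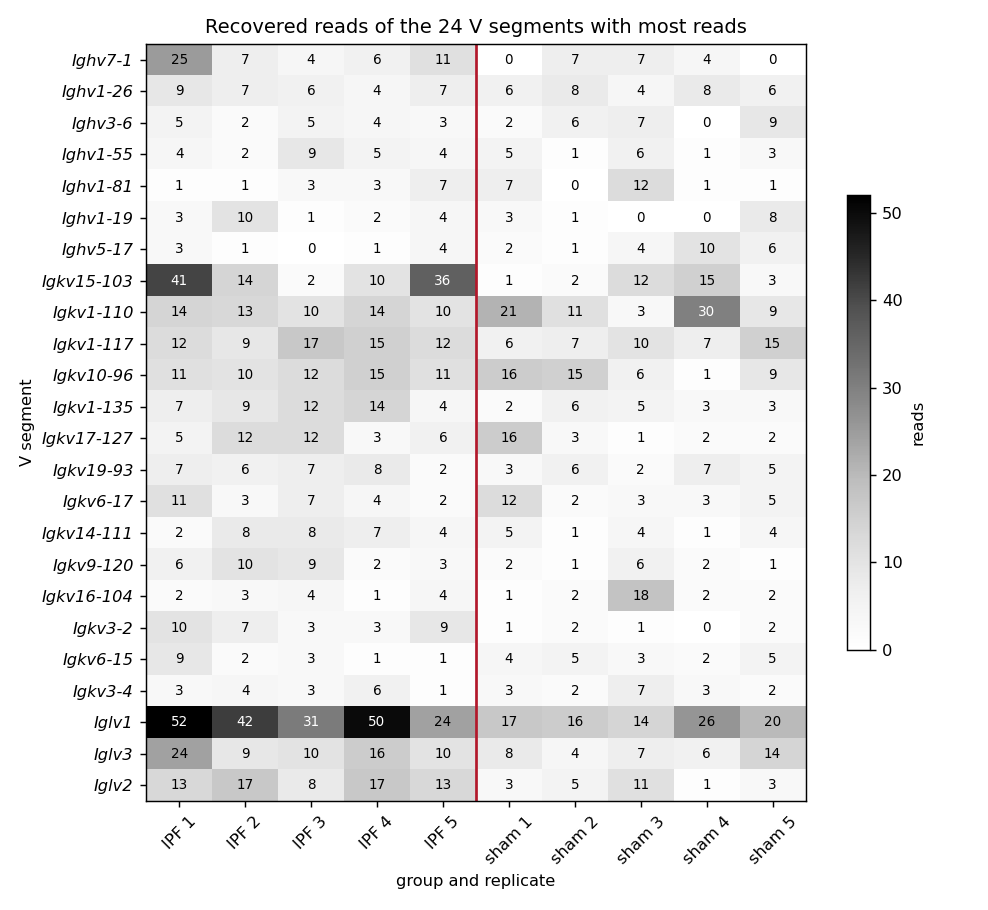
Recovered reads (number and shade) of the V segments with most reads, by lung, with IPF to the left and sham to the right of the red line. Iglv1 is darkest in IPF replicates 1, 2 and 4, while its IPF replicate 5 (24 reads) is lighter than sham replicate 4 (26 reads). Igkv15-103 is dark in IPF replicates 1 and 5 and Igkv1-110 in sham replicate 4.

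Grouped by family, Ighv1 led the heavy chain reads in both groups. Ighv1, the largest heavy chain family with 38 members, took 56.2% ± 9.7 of Ighv reads in IPF and 54.6% ± 10.7 in sham, and Ighv5, the next, 7.13% ± 3.45 and 11.9% ± 4.80. Among kappa families, Igkv1 took 17.7% ± 2.32 in IPF and 20.7% ± 8.98 in sham, Igkv6 10.3% ± 3.57 and 10.5% ± 5.26, and Igkv4 10.0% ± 1.44 and 9.86% ± 3.10 (SD, n = 5 each). The lungs overlapped in each of these families.

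J segments are 38 to 100 bases long in the annotation, shorter than a read, so their FPKM are large for few reads. They had 32 to 46 reads in total per IPF lung and 12 to 23 per sham lung, without overlap. The 3 with most reads were kappa segments. Igkj5 had 12, 11, 6, 8 and 6 reads in IPF and 4, 4, 6, 9 and 1 in sham (log2 fold change 0.97, SE 0.47, limma adjusted p = 0.287). Igkj4 had 8 reads in 4 IPF lungs and 4 in replicate 5, and 1 to 9 in sham (limma adjusted p = 0.177). Igkj3 had 4, 9, 5, 4 and 10 in IPF and 3, 3, 1, 2 and 0 in sham, without overlap (limma adjusted p = 0.166). The kappa J segments and Igkc lie within Gm30211, a long non-coding RNA on the same strand with 107 reads of its own, and Iglc1, Iglc3 and Iglv1 overlap the antisense gene 2010309G21Rik, which had 18 reads, and whether the counting used strand is not settled by the sources, so a part of their reads is uncertain.

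D segments are the shortest elements. Single reads were found for 4 of the 19, Ighd1-1, Ighd2-3, Ighd3-1 and Ighd4-1, and none met the rule.

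Many B cell genes rose in the same lungs as Ighm. Of the 17 B cell markers tested, 17 had a positive log2 fold change, 11 passed an adjusted p under 0.05 (limma) and the median was 0.79, and the summed FPKM of the list was 58.3 to 85.52 in the IPF lungs and 32.33 to 49.15 in the sham lungs. Of all genes tested, 5.85% passed, 3.71% in the higher direction, and 10298 of 20448 had a positive log2 fold change. Cd79a stood at 17.9, 14.7, 14.8, 14.6 and 11.6 FPKM in IPF and 7.41, 8.38, 9.02, 4.62 and 7.20 in sham (log2 fold change 1.02, SE 0.17, limma adjusted p = 0.00591). Ms4a1, which encodes CD20, stood at 3.06 ± 0.714 and 1.27 ± 0.218 FPKM (SD, n = 5 each; log2 fold change 1.19, SE 0.18, limma adjusted p = 0.00336). Cd79b, Cd22, Cd72, Blk, Pax5, Spib, Fcrla and Fcmr also passed, with log2 fold changes of 0.60 to 1.11. Ebf1 (0.07), Ralgps2 (0.15), Cr2 (0.36), Fcer2a (0.47), Bank1 (0.74) and Tnfrsf13c (1.01) did not.

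Of the 15 plasma cell genes tested, 11 were higher and 4 lower in IPF. An adjusted p under 0.05 (limma) was reached by 2, both higher in IPF, while 5.85% of all genes passed. These were Tnfrsf13b, the TACI receptor (log2 fold change 0.56, adjusted p = 0.011), and Pou2af1, a coactivator of immunoglobulin transcription (0.75, adjusted p = 0.0159), both of which B cells also express. The median was 0.12. Jchain stood at 1.49, 0.715, 0.714, 0.937 and 1.19 FPKM in IPF and 1.49, 1.04, 2.08, 2.12 and 1.28 in sham (log2 fold change -0.62, SE 0.24, limma adjusted p = 0.178), Mzb1, an antibody assembly chaperone, was 0.61 log2 units higher (limma adjusted p = 0.0963), and Xbp1, a factor of the secretory programme, 0.33 (limma adjusted p = 0.0679). Sdc1 and Txndc5, at 62.5 ± 8.5 and 47.8 ± 3.63 FPKM in IPF, are also epithelial or secretory genes of the lung and had log2 fold changes of -0.06 and -0.07. The list summed to 240.2 to 313.2 FPKM in IPF and 236.0 to 277.2 in sham.

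Of the genes that carry antibody across cells, Pigr and Fcgrt did not pass. Pigr stood at 1.42, 2.30, 9.53, 3.94 and 1.25 FPKM in IPF and 6.22, 5.97, 5.83, 5.82 and 2.25 in sham (log2 fold change -0.81, SE 0.50, limma adjusted p = 0.413), and Scgb1a1, the main secretory gene of airway club cells, at 3280, 4790, 25900, 4330 and 12900 in IPF and 11100 to 22200 in sham (log2 fold change -1.12, limma adjusted p = 0.317). IPF replicate 3 was the highest of all lungs in both Pigr and Scgb1a1 and held Igha at 0.733 FPKM. The part of airway tissue in the difference of Igha was not tested. Fcgrt encodes the neonatal Fc receptor (limma adjusted p = 0.719, log2 fold change -0.06). Of the 12 antibody transport and Fc receptor genes tested, 3 passed, all higher in IPF, while 5.85% of all genes passed. The 3 were Fcgr1, the high-affinity IgG receptor (log2 fold change 0.97, limma adjusted p = 0.0133), Fcer1g, the chain shared by Fc receptors (0.41, adjusted p = 0.0468), and the IgM receptor Fcmr (0.79, adjusted p = 0.0159), which is also in the B cell list.

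Of the 7 germinal centre and class switch genes tested, 0 passed by limma (0 at an unadjusted p under 0.05, 0 by limma voom), with a median of -0.13. The antigen receptor recombination list gave 0 of 2 (1 unadjusted, 0 by limma voom), and the 2 tested were Vpreb1 and Vpreb3. Rag1, Rag2, Dntt and Igll1 were below the filter and Vpreb2 had no read, so the recombination genes Rag1, Rag2 and Dntt were not tested. Of 13 factors of B cell growth and homing, 2 passed, against 5.85% of all genes. These were Cxcr5, the receptor that guides B cells to follicles (log2 fold change 0.87, limma adjusted p = 0.00612), and Ltb, lymphotoxin beta (0.83, limma adjusted p = 0.0243). T cell genes had a median of 0.34, with Cd4 the only one of 12 that passed (log2 fold change 0.48, limma adjusted p = 0.044, none by limma voom), and of 53 T cell receptor rows tested, 3 passed an adjusted p under 0.05 (limma, 5.66%, against 5.85% of all genes), with a median of 0.32. Lymph node stroma genes gave 0 of 7 (1 unadjusted, 0 by limma voom) and thymus genes 0 of 3 (2 unadjusted, 0 by limma voom).

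With IPF replicate 3, the lung with Glycam1, and sham replicate 1, which stood apart from the series in its number of genes with a read (25486, against 22475 to 23575 in the others), both left out, 6 members passed an adjusted p under 0.05 and 4 were called with the fold limit, against 8 and 5. The 5 C genes that passed, Ighm, Igkc, Iglc1, Iglc2 and Igha, did so in each of 21 alternatives, whereas the 3 V segments did not.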

How the data were processed

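Whole-lung mRNA of 10 mice was sequenced, 5 IPF and 5 sham, and grouped by the labels. The authors used Fastp for trimming, HISAT2 for alignment and StringTie for quantification, and deposited an FPKM value for each of 54532 genes and each lung. The methods name GRCm39, but the gene positions in the file are those of GRCm38, with a last gene on chromosome 1 ending at 195323493. The methods name a KAPA library kit and the labels NEBNext Ultra, so strandedness is not settled, and the submitters' processing notes also name Bowtie 0.12.2. FPKM times gene length, divided by the value of 1 read estimated for each lung, gave whole reads for 100% of values (within 0.05 of a whole read), which were used for reads and shares.

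Rows whose mean FPKM reached 0.1 entered limma 3.58.1 (R 4.3.3) as log2(FPKM + 0.1), with a variance trend; this scale understates changes of low genes. No covariate was used. DESeq2, the study's tool, was not run here; limma voom on the recovered reads was the count-based alternative. Single values were compared by exact permutation over 252 assignments (scipy 1.17.1). Expected segment numbers follow the closed form of rarefaction. The limma fit was checked on simulated reads. Recovery was required there only of genes with more reads than any V or J member had, so the check does not cover single V and J segments. A group with at most 3 reads in each lung was treated as at the floor. The members and all marker lists were chosen with earlier results of these data known. Named genes are all C members, the 5 V members of highest mean FPKM per locus, the 3 J members with most reads, members with an adjusted p under 0.05, the 3 tested V members at either extreme and selected list genes; exceptions are stated. Sequences are coding bases of GENCODE vM39 transcripts matched by gene ID for all 143 V members. Alternatives covered pseudocount, filter, scaling, weights, trend, the replicate block, detection limits and leaving out each lung. Some genes of the marker lists are counted in the lists but not reported here by name.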

Additional observations from a re-analysis of the deposited data

Results flagged for a closer look

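Of 94 groups of 5 lungs examined, 10 had a highest or lowest lung whose gap to the next lung, as a share of the whole range, was above 0.71. About 1 in 20 groups of 5 independent normal values pass that limit. Values built from few reads and groups that share the same lungs do not meet that condition, so no excess over chance can be read from the 10. Among constant genes, sham replicate 1 was lowest for Iglc2, at 2.68 FPKM (gap ratio 0.733). In the use of V segments, sham replicate 4 was highest in the share of Ighv reads on the 5 leading segments, at 61.2% (gap ratio 0.764). Single segments with such a lung were Igkv10-96 in IPF (replicate 4, 2.29 FPKM, gap ratio 0.792), Igkv17-127 in sham (replicate 1, 2.70 FPKM, gap ratio 0.884), Igkv9-124 in IPF (replicate 4, 2.64 FPKM, gap ratio 0.83) and the J segment Igkj4 in IPF (replicate 5 lowest, 5.95 FPKM, gap ratio 0.776). Ighv1-52 and Igkv9-124 in sham had a gap ratio of 1 because a single lung held 1 read and the others none (0.187 FPKM in replicate 5 and 0.176 FPKM in replicate 3). Outside the immunoglobulin genes, Glycam1 was found in IPF replicate 3 alone (5.6 FPKM, gap ratio 1), and Pigr was lowest in sham replicate 5 (2.25 FPKM, gap ratio 0.898). No difference between 2 contrasts could be examined, since the series holds a single contrast.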

How the results depend on the processing

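The number of members called with the fold limit, 5, became 3 with a pseudocount of 1 and 8 with array weights. Leaving out each lung in turn gave 4 to 9, with 9 without IPF replicate 3 and 8 without IPF replicate 5. The difference in the IgA share, -10.1 percentage points, was -13.5 on reads scaled to library size (RPM), and the difference in Igkv segments detected, 9.4, was 2.16 at equal V reads, which by construction removes the difference in V reads. Of 313 values that answer a comparison under an alternative, 307 stayed within 1.5 times the count or, for untested values, within 1 SD between lungs, and none reversed a called value. That limit is wide where lungs differ: the share on the 5 leading segments (IPF minus sham) went from -6.75 to -1.7 percentage points for Ighv and from -5.76 to -2.34 for Igkv without sham replicate 4, the log2 ratio of summed Ighv from 0.18 to 0.05 without IPF replicate 1, that of IgD from 0.32 to 0.19 without sham replicate 4 and that of IgG from -0.66 to -0.43 without sham replicate 1, and the difference in Ighv segments from 5.6 to 3.45 without IPF replicate 1 and to 2.11 at equal V reads. For single genes, 712 of 763 values kept their side of the threshold, 34 lost and 17 gained a call. With a pseudocount of 1 the log2 fold changes of low genes shrank, as from 1.44 to 0.88 in Igkv15-103, 0.68 to 0.42 in Iglv3 and -0.62 to -0.37 in Jchain. IPF and sham lungs share replicate numbers, but the deviations of same-numbered lungs correlated at only -0.0204 to 0.0953 and 3 of 5 lungs correlated best with their own number. With the replicate number as a block, 7 members passed an adjusted p under 0.05 and 5 were called, and Iglv1 was lost (adjusted p = 0.0529, range over alternatives 0.0106 to 0.101). Leaving out both IPF replicate 3 and sham replicate 1 was chosen after the data were seen. Depth limits V segments: the median V member had 14 reads over 10 lungs.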
